A study of Mus musculus with 6 samples.

Results

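Respiratory complex I, the NADH:ubiquinone oxidoreductase of the inner mitochondrial membrane, takes electrons from NADH, passes them along iron-sulfur clusters to ubiquinone and pumps protons across the membrane. It is an L-shaped enzyme. The N module at the tip of the peripheral arm oxidises NADH, the Q module reduces ubiquinone, and the membrane arm, with a proximal and a distal part, moves protons. A few core subunits carry the chemistry and are conserved from bacteria, many accessory subunits surround them, and assembly factors join the modules without staying in the finished enzyme. The hydrophobic core of the membrane arm is encoded by mitochondrial DNA and all other subunits by nuclear genes. Proliferating muscle precursors draw on respiration and glycolysis, and respiratory chain content is known to rise as they differentiate.

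The genes described here are the nuclear genes whose array name starts with Ndufa, Ndufb, Ndufc, Ndufs, Ndufv or Ndufaf. They were 39 genes of 28307 names on the array, measured by 61 of 41174 non-control probes. Of the 39, 36 encode subunits, 2 encode the assembly factors Ndufaf1 and Ndufaf2, and Ndufa4 encodes a protein once counted with complex I and now assigned to complex IV. RNA came from proliferating skeletal muscle satellite cells of female mice, in 3 samples from Magic-F1+/+ animals and in 3 control samples. Magic-F1 is an artificial agonist of the receptor MET, built from parts of the hepatocyte growth factor. The control titles carry the word MLC3F, which the labels do not explain, and they name neither the promoter of the transgene nor the age of the animals. There was 1 single-colour Agilent array for each sample. Values are log2 signals relative to the 75th percentile of the same array, so a value of 0 is the signal that 75% of the spots lie below. Differences are Magic-F1 minus control, tested with limma and called at a Benjamini-Hochberg adjusted p under 0.05 over all tested probes. The labels call the samples biological triplicates but name no separate animals or cultures, so p-values measure only the spread between these samples.

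The 2 groups differed in most genes. Spot signals had a 75th percentile of 348 ± 7.78 in Magic-F1 and 282 ± 8.93 in control (SD, n = 3 arrays a group), with 49.2% to 52.0% of spots well above background and no saturated spot. Over bright repeated probes, control replicate 3 differed from the other controls by 0.139 and 0.153 log2 units (SD beyond spot noise), against 0.034 between those 2 and 0.044 to 0.072 among Magic-F1 arrays. Of 14905 genes tested, 47.7% were called lower and 40.6% higher. Defining markers did not follow the label in the Magic-F1 samples. The control samples, for their part, had high signals of neutrophil and precursor markers beside those of muscle precursors. The satellite cell transcription factor Pax7 was well above background on none of the Magic-F1 arrays, and its probe was tested through the control arrays alone. Against the lowest signal well above background, Pax7 was 4.63-fold lower in Magic-F1 than in control. The limma log2 change was −3.33 (adjusted p = 0.000398). With normexp background correction the change of Pax7 was −0.77, a smaller fall than either value, so the size is uncertain. Myf5 was not well above background on any array. Of 9 tested satellite cell and myoblast markers 8 were lower and 1, Sdc4, was higher, and their summed linear signal was 34.0 to 35.4 times the 75th percentile on Magic-F1 arrays and 428 to 464 times on control arrays. Of 11 tested macrophage markers 10 were higher and 1 was lower (summed signal 1414 to 1491 in Magic-F1, 382 to 414 in control). The lower one, Lyz2, had mean log2 values of 8.18 in Magic-F1 and 8.48 in control and made up most of the control sum. The median log2 change of the 11 was +4.89, and Mrc1 was not well above background in control. All 7 tested adipocyte markers were higher (432 to 462 in Magic-F1, 59.0 to 66.0 in control), with Retn not well above background in control. All 8 tested neutrophil and precursor markers were lower (0.275 to 0.289 in Magic-F1, 583 to 629 in control), and S100a9, Camp, Ngp and Ltf were well above background on none of the Magic-F1 arrays. Of 5 endothelial markers 4 were lower and 1 higher (0.197 to 0.226 in Magic-F1, 7.48 to 7.87 in control), as were 4 and 1 of 5 fibroblast and fibro-adipogenic markers (360 to 364 in Magic-F1, 607 to 630 in control). Their part in the results below was not tested. In such bulk RNA, fewer cells of a type and less RNA per cell cannot be told apart.

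The probes that carry the main results are shown as their 60-base sequences, with positions on mouse build mm9. A pair of Ndufa11 probes on the plus strand and a trio of Ndufs6 probes on the minus strand overlap within their gene. Capitals mark the bases that all probes of that gene in the list share, 50 for Ndufa11 and 33 for Ndufs6.
Ndufa11 first probe, chr17:56857241-56857300: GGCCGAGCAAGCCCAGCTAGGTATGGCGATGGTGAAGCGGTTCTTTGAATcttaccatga
Ndufa11 second probe, chr17:56857231-56857290: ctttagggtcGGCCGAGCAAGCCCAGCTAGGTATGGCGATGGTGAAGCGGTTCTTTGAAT
Ndufs6 first probe, chr13:73457790-73457849: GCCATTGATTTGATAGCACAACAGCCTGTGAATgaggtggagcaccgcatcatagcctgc
Ndufs6 second probe, chr13:73457796-73457855: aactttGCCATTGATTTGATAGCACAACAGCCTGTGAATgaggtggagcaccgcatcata
Ndufs6 junction probe, chr13:73457818-73464875: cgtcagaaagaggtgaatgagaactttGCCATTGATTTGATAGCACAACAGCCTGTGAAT
The Ndufs6 junction probe covers an exon junction, so its coordinates enclose an intron. Overlapping probes share their target and are no separate replicates.

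Ndufv3, whose probes did not move together, is shown with its 3 probes on the plus strand in lower case, as none of them overlap. The upstream probe lies in both RefSeq transcripts listed for the gene and the other probes in 1 of them.
Ndufv3 upstream probe, chr17:31658570-31658629: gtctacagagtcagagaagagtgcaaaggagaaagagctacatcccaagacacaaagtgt
Ndufv3 middle probe, chr17:31664691-31664750: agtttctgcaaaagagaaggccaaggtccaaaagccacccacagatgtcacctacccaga
Ndufv3 downstream probe, chr17:31665148-31665207: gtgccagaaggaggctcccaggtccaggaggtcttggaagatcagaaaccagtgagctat
The probes of Ndufa6, the 1 member that was not called, and of both assembly factors lie on the minus strand, and that of Ndufaf1 spans an exon junction.
Ndufa6, chr15:82181444-82181503: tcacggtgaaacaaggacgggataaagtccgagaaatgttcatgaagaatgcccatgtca
Ndufaf1, chr2:119481504-119482138: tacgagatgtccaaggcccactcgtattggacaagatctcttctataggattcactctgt
Ndufaf2, chr13:108843015-108843074: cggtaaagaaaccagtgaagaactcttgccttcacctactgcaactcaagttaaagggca

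Complex I genes were lower in Magic-F1 cells almost throughout. Of the 39 genes, 38 were called lower, none was called higher and Ndufa6 was not called, where 47.7% of all tested genes were called lower. Scaling to the spiked-in transcripts left 28 of the 36 subunit genes lower and called 2 higher, against 35 lower and 0 higher as reported. The members' median log2 change was −1.14, and that of all tested genes was −0.15. In 38 of 39 genes every Magic-F1 array lay below every control array. Counting both directions, the groups did not overlap in 89.8% of all tested genes, so such separation was common on these arrays. By at least 2-fold, 22 of the 39 were lower, where 28.4% of all tested genes were. This count was 8 of 39 with spike-in scaling, where 19.6% of all genes were, 13 with quantile normalization (26.8%) and 14 with the authors' deposited values (21.9%), and the 2-fold counts of the modules below are those with the 75th percentile. All 39 were well above background on all 6 arrays, and among the 13026 genes of which that holds 48.1% were called lower. The SD over the arrays of a group was 0.04 (median over members) in Magic-F1 and 0.12 in control. Control replicate 3 was the highest control array in 36 of 39 members, and without it the subunit median was −1.004, against −1.08 with it, with all 38 calls kept. Within slides, the subunit median change was −1.07 on slide 1, with 2 arrays a group, and −1.05 on slide 2, with 1 array a group.

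**Figure D1:**
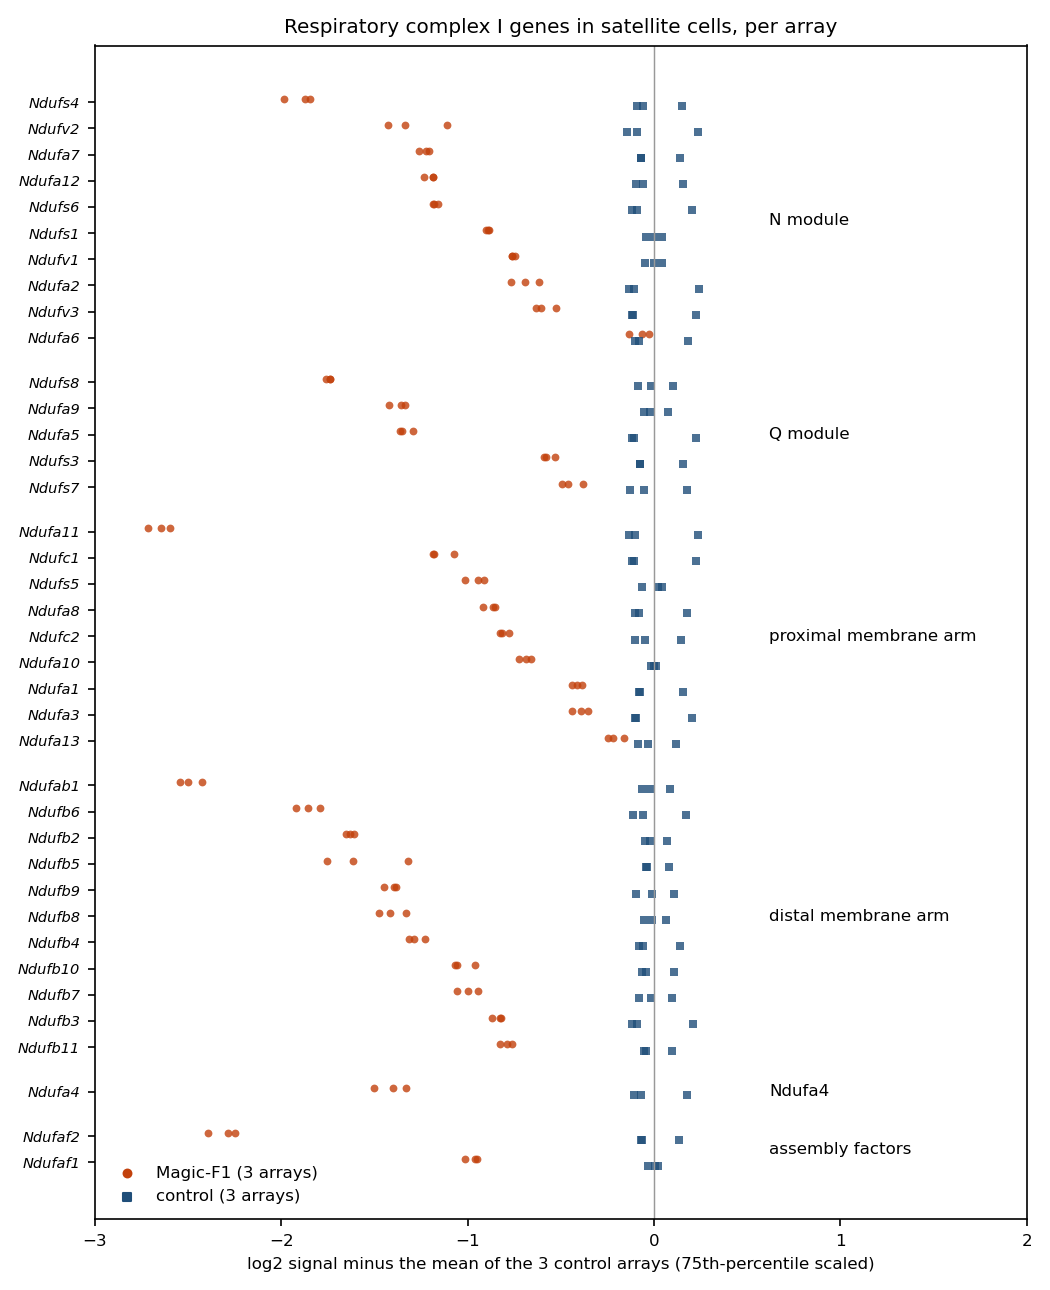
Each row is 1 of 38 complex I genes and each point 1 array, as log2 signal minus the mean of the 3 control arrays (horizontal axis), with circles for Magic-F1, squares for control and genes grouped by module. The Magic-F1 points lie left of all control points in 37 of these genes, reach −2.65 on average for Ndufa11 and overlap the control points for Ndufa6.

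The N module was lower in 9 of its 10 genes, with a median change of −1.03. It had 5 genes at least 2-fold lower, where 28.4% of all tested genes were. The changes of its catalytic subunits were smaller than that of Ndufs4. Ndufv1, which binds the flavin and NADH, had log2 values of 5.95, 5.95 and 5.96 on the Magic-F1 arrays and 6.66, 6.71 and 6.75 on the control arrays. The Magic-F1 arrays were all below the control arrays, a change of −0.75 (SE 0.05, adjusted p = 9.03e-06). Ndufs1, the iron-sulfur subunit that takes the electrons onward, had 5.16, 5.15 and 5.16 in Magic-F1 and 6.05, 6.09 and 6.01 in control, a change of −0.89 (SE 0.04, adjusted p = 3.63e-06). Its control values spread little and did not set control replicate 3 apart. Ndufv2, the partner of Ndufv1, was dim, with −2.49, −2.71 and −2.81 in Magic-F1 and −1.47, −1.52 and −1.14 in control. It was lower, with a change of −1.29 (SE 0.13, adjusted p = 0.000125) that was −0.83 with normexp background correction.

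Ndufs4, an accessory subunit needed to complete the N module and a known Leigh syndrome gene in people, showed the largest fall of the module. It had 3.23, 3.09 and 3.21 on the Magic-F1 arrays and 5.02, 4.99 and 5.23 on the control arrays, a change of −1.90 (SE 0.08, adjusted p = 1.98e-06), or 3.74-fold lower. Every Magic-F1 value was more than 1 unit below every control value. The zinc-binding accessory subunit Ndufs6 was lower on all 3 probes shown above, with changes of −1.18 (SE 0.09), −1.22 (SE 0.10) and −1.27 (SE 0.11). Ndufa12 fell by 1.20 on the log2 scale, Ndufa7 by 1.23 and Ndufa2 by 0.69, and the Ndufa2 change was −0.24 and no longer called with spike-in scaling.

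Ndufa6, an accessory subunit of the LYR family that binds the acyl carrier protein, was the exception. It had 4.004, 3.93 and 4.04 on the Magic-F1 arrays and 3.99, 3.96 and 4.25 on the control arrays, with overlapping groups. Its change was −0.08 (SE 0.09, adjusted p = 0.444). It was +0.02 without control replicate 3, and +0.38 and called higher with spike-in scaling (adjusted p = 0.0138).

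Ndufv3, a small accessory subunit of the N module made in a short and a long form, gave opposite calls on its probes. The upstream probe had 4.23, 4.20 and 4.31 in Magic-F1 and 4.73, 4.72 and 5.06 in control, a change of −0.59 (SE 0.10, adjusted p = 0.00195). That change was −0.13 and not called with spike-in scaling. The middle probe was lower as well, with a change of −0.39 (SE 0.06, adjusted p = 0.000815). The downstream probe had 1.94, 1.99 and 1.99 in Magic-F1 and 1.33, 1.43 and 1.29 in control, all Magic-F1 arrays above all control arrays, a change of +0.62 (SE 0.05, adjusted p = 5.23e-05). The calls of the middle and downstream probes differ although both lie in the same listed transcript, and which form each measures was not tested.

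All 6 genes of the Q module were lower, with a median of −1.24 and 4 of them at least 2-fold lower (28.4% of all tested genes). Ndufs8, which holds iron-sulfur clusters between Ndufs1 and the quinone site, had 1.45, 1.45 and 1.43 in Magic-F1 and 3.10, 3.17 and 3.29 in control. It fell by 1.75 on the log2 scale (SE 0.06, adjusted p = 7.73e-07), the largest change of the 7 core subunits measured. The nearest arrays of the groups lay more than 1 unit apart.

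The core subunits Ndufs3 and Ndufs7 had smaller changes. Ndufs3 had 3.60, 3.66 and 3.61 in Magic-F1 and 4.11, 4.11 and 4.34 in control, a change of −0.57 (SE 0.08, adjusted p = 0.000483). Ndufs7, which carries the last cluster before ubiquinone, had 6.12, 6.15 and 6.23 in Magic-F1 and 6.49, 6.56 and 6.79 in control, a change of −0.45 (SE 0.09, adjusted p = 0.0035). Both were lower on every Magic-F1 array, but with spike-in scaling Ndufs3 was at −0.11 and Ndufs7 at +0.01, neither called. The accessory subunits Ndufa5 and Ndufa9 changed by −1.34 and −1.37. Over the 7 core subunits the median change was −0.89 with 3 at least 2-fold lower, and over the 29 accessory subunits it was −1.15 with 17 at least 2-fold lower. That difference was not tested, and 28.4% of all tested genes were at least 2-fold lower.

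In the proximal membrane arm all 9 genes were lower with a median of −0.81, the smallest change of the 4 modules. Of these, 2 were at least 2-fold lower, a share below the 28.4% of all tested genes. Ndufa11, a membrane subunit beside the core that helps hold the arms together, showed the largest fall of all members. Its first probe had 2.37, 2.49 and 2.44 on the Magic-F1 arrays and 4.98, 4.95 and 5.32 on the control arrays, a change of −2.65 (SE 0.11, adjusted p = 1.56e-06), or 6.29-fold lower. The second probe, with most of the same bases, gave −2.46 (SE 0.13). The groups were more than 2 units apart on both probes. Near-copies of some members are annotated in the mouse, among them Ndufa11b, Ndufs6b, Ndufb4b and Ndufb4c and the pseudogenes Ndufa12-ps, Ndufs5-ps and Ndufab1-ps, so the values of these members may include RNA of the copy.

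Ndufa13, also known as Grim19, showed the smallest called fall. It had 8.29, 8.26 and 8.35 in Magic-F1 and 8.42, 8.47 and 8.63 in control, a change of −0.21 (SE 0.07, adjusted p = 0.0253). Its direction depended on the processing: it was +0.42 with quantile normalization and +0.25 with spike-in scaling, and called higher in both. In the authors' deposited table it was +0.09 and not called (adjusted p = 0.164). Ndufa1, a small membrane subunit, had 6.24, 6.27 and 6.29 in Magic-F1 and 6.60, 6.60 and 6.84 in control, a change of −0.41 (SE 0.08, adjusted p = 0.00241) that was +0.04 with spike-in scaling. Ndufa3 changed by −0.40 (SE 0.09, adjusted p = 0.0073) and by +0.06 with spike-in scaling, while its second, dimmer probe gave −2.20 (SE 0.15). The remaining members, Ndufa8, Ndufa10, Ndufc1, Ndufc2 and Ndufs5, lay between −1.15 and −0.69.

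The distal membrane arm had the largest median fall of the modules, −1.41, with all 11 genes lower. Of these, 9 were at least 2-fold lower (28.4% of all tested genes). Ndufab1, the mitochondrial acyl carrier protein, sits in both arms of the enzyme and also serves fatty acid synthesis. It had 0.42, 0.37 and 0.50 in Magic-F1 and 2.90, 2.85 and 3.00 in control, a change of −2.49 (SE 0.06, adjusted p = 2.07e-07), or 5.62-fold lower. Its other tested probes gave −1.59 (SE 0.13) and −1.02 (SE 0.06), so the direction was shared and the size was not. Ndufb6, an accessory subunit of the arm, had 3.32, 3.19 and 3.25 in Magic-F1 and 5.05, 4.999 and 5.28 in control, a change of −1.86 (SE 0.09, adjusted p = 2.87e-06). Ndufb5 fell by 1.56 on the log2 scale with the widest spread of a member over the Magic-F1 arrays (SD 0.22). Ndufb9, Ndufb4, Ndufb10, Ndufb7, Ndufb3 and Ndufb11 lay between −1.41 and −0.79, in that order.

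Ndufb8, a subunit whose protein is often used as a readout of assembled complex I, was measured by a bright and a dim probe. The bright probe had 7.11, 7.17 and 7.26 in Magic-F1 and 8.53, 8.58 and 8.66 in control, a change of −1.41 (SE 0.06, adjusted p = 2e-06). The dim probe had −0.32, −0.38 and −0.33 in Magic-F1 and −0.59, −0.46 and −0.46 in control, a change of +0.16 (SE 0.05, adjusted p = 0.0282), so the calls were opposite and unlike in size. Ndufb2 fell by 1.63 on the log2 scale (SE 0.05, adjusted p = 4.7e-07) on its brighter probe. Its second probe, near background, gave +0.28 (SE 0.14, adjusted p = 0.108) with overlapping groups.

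**Figure D2:**
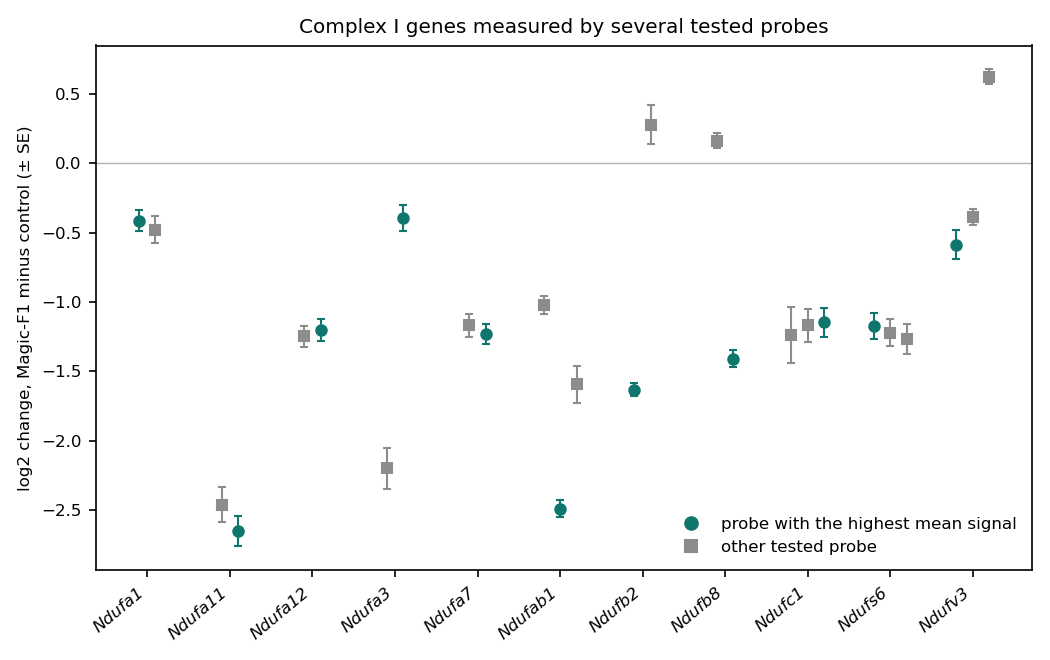
Log2 change, Magic-F1 minus control, with its SE (vertical axis) for each tested probe of the 11 complex I genes that had several; circles are the probe with the highest mean signal, squares the others, ordered by genome position within a gene. The probes fall together in 8 genes, and lie on both sides of 0 for Ndufb2, Ndufb8 and Ndufv3, where the probe above 0 was called in Ndufb8 and Ndufv3 and not in Ndufb2.

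Over all tested member probes 50 were called lower, 2 higher and 2 were not called, where 46.4% of all tested probes were called lower and 41.3% higher. The other 7 member probes were not well above background on any array. Of these, 1 overlaps a bright probe of Ndufa12 and 1 a bright probe of Ndufa8. The Ndufa12 pair, on the plus strand of mm9 and across an exon junction, is shown because 1 probe is bright and the other dim, with their 40 shared bases in capitals.
Ndufa12 bright probe, chr10:93662740-93666054: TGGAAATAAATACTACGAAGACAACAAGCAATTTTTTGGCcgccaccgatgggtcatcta
Ndufa12 dim probe, chr10:93662720-93666034: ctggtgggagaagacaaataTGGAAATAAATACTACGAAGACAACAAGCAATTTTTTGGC
The bright probe of the pair changed by −1.25 (SE 0.07, adjusted p = 8.9e-06), and the remaining tested probe of the gene by −1.20 (SE 0.08, adjusted p = 1.22e-05).

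Ndufa4, the complex IV protein that shares the family name, had 4.34, 4.26 and 4.17 on the Magic-F1 arrays and 5.60, 5.56 and 5.84 on the control arrays. It was lower on every Magic-F1 array, a change of −1.41 (SE 0.09, adjusted p = 1.44e-05). Its paralogue Ndufa4l2, the subunit gene Ndufb1, the assembly factor Ndufaf8 and the mitochondrially encoded subunits were not analysed here.

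Both assembly factors named by the prefix were lower, and their median change of −1.64 compares with −1.08 for the 36 subunits. Ndufaf2, a chaperone that takes the place of Ndufa12 in the late intermediate, had 2.88, 2.73 and 2.84 in Magic-F1 and 5.06, 5.06 and 5.26 in control, a change of −2.31 (SE 0.08, adjusted p = 6.5e-07), or 4.96-fold lower. Ndufaf1, of the complex that builds the proximal membrane arm, had 3.04, 3.03 and 2.98 in Magic-F1 and 3.997, 3.96 and 4.01 in control, a change of −0.97 (SE 0.04, adjusted p = 2.44e-06). Both sets of arrays were clear of each other. With 2 assembly factors, the difference of 0.56 between the medians is a description without a test, and the change of Ndufaf1 was smaller than the subunit median.

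The Ndufaf family under its current names adds genes that the array lists under older ones. Of 6 tested, 5 were lower, none higher and Ndufaf3 was not called. Ndufaf4 averaged 1.89 ± 0.04 in Magic-F1 and 4.10 ± 0.08 in control, a change of −2.21 (SE 0.06, adjusted p = 2.81e-07). Ndufaf6 averaged −1.11 ± 0.04 in Magic-F1 and 1.05 ± 0.05 in control, a change of −2.16 (SE 0.05, adjusted p = 1.56e-07). Ndufaf7, a methyltransferase, averaged 2.56 ± 0.04 in Magic-F1 and 3.97 ± 0.02 in control, a change of −1.41 (SE 0.04, adjusted p = 5.43e-07). Ndufaf3 averaged 2.76 ± 0.04 in Magic-F1 and 2.81 ± 0.06 in control (SD, n = 3 each throughout), a change of −0.05 (SE 0.05, adjusted p = 0.383). Ndufaf3 was +0.40 and called higher with spike-in scaling (adjusted p = 0.00195), +0.29 and called higher in the authors' deposited table and +0.08 with median scaling. Ndufaf5 was not well above background on any array.

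Of 13 tested assembly factors with other names, 11 were lower, 1 was higher and 1 was not called, with a median of −0.84. The largest falls were those of Timmdc1 and Acad9, both of the complex that builds the membrane arm, at −3.22 (SE 0.07) and −2.15 (SE 0.07), followed by Ecsit of the same complex at −1.80 (SE 0.07) and Sfxn4 at −1.65 (SE 0.05), which was −0.75 as the mean of its tested probes. The 1 that was higher was Dmac2, at +0.70 (SE 0.04), which the naming rule does not cover and which is named after its value was seen. Iron-sulfur cluster genes, which supply the clusters of the N and Q modules, had 8 of 14 lower, 4 higher and 2 not called, shares near the 47.7% and 40.6% of all tested genes. Among those that were higher, Iba57 changed by +1.52 (SE 0.04), or +0.99 as the mean of its tested probes, and Nfs1, which provides the sulfur, by +1.28 (SE 0.05). The median of these 14 was −0.75.

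Genes of the other respiratory complexes were lower as well. Of 37 tested nuclear genes of complexes II to V, 36 were lower and 1, Sdha, also named after its value was seen, was higher at +1.22 (SE 0.08), and their median change was −1.10. The largest falls were those of Cyc1 (−1.86) and Uqcrc2 (−1.81) of complex III, Atp5o of the ATP synthase (−1.79) and Cox7b of complex IV (−1.75). Of the regulators of mitochondrial gene expression 6 of 13 were lower, 5 higher and 2 not called, with a median of −0.17, which is near the shares and the median of all tested genes. Tfam, which packages and transcribes mitochondrial DNA, changed by −1.72 (SE 0.05), or −0.71 as the mean of its tested probes, Myc by −1.65 (SE 0.05) and Gabpb1 by −1.55 (SE 0.08). Tfb1m was well above background on none of the control arrays, and its probe was tested through the Magic-F1 arrays alone. Against the lowest signal well above background, Tfb1m was 9.18-fold higher in Magic-F1. The limma change was +4.93 (adjusted p = 0.000135). The means of Tfb1m were −1.78 ± 0.05 in Magic-F1 and −6.71 ± 1.07 in control (SD, n = 3 each). With normexp background correction its log2 change was +1.21, a smaller rise than either value, so the size is uncertain. No difference between the lists was tested.

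**Figure D3:**
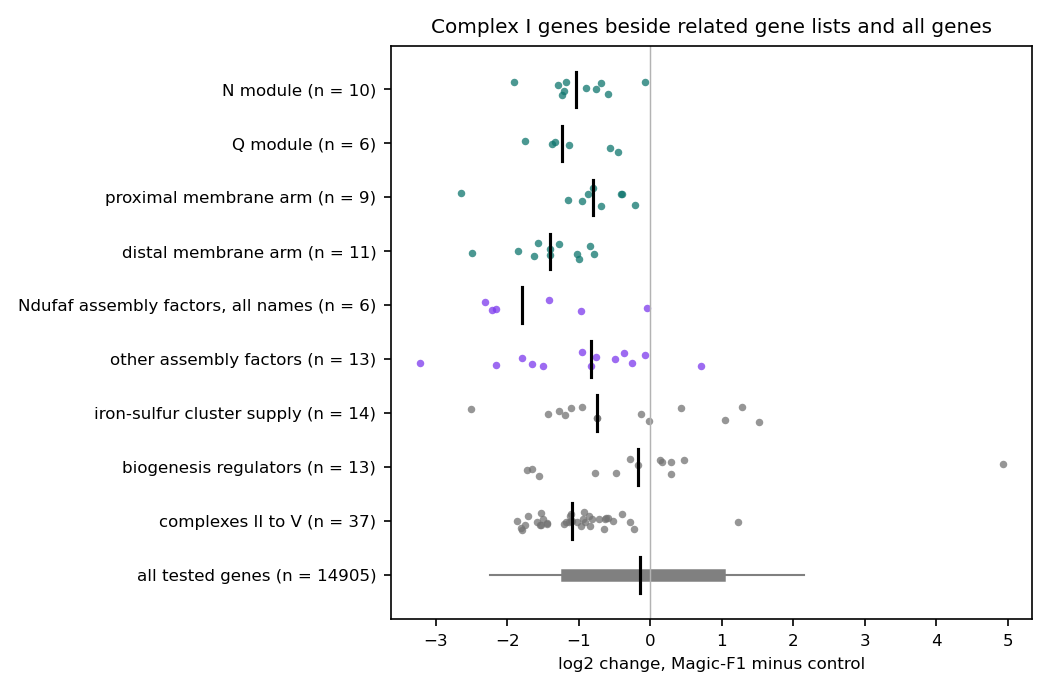
Log2 change, Magic-F1 minus control (horizontal axis), with 1 point a gene, a black bar at each median, and for all 14905 tested genes a thick line over the middle 50% and a thin one from the 10th to the 90th percentile. The 4 complex I modules have medians from −1.41 to −0.81, the complexes II to V a median of −1.10 and all genes one of −0.15.

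How large the fall appears depends on how arrays are scaled. With scaling to the spiked-in transcripts the median change over all genes was +0.31, against −0.15 with the 75th percentile, and the subunit median was −0.63. This scaling raises the change of every gene by 0.46 relative to the values printed. Quantile normalization made some changes smaller by over 1.5 times, such as those of Ndufs5 (−0.33), Ndufb7 (−0.43), Ndufb10 (−0.47) and Ndufb9 (−0.83), and the mean of all tested probes did so for Ndufb2 (−0.68) and Ndufb8 (−0.62). The subunit median minus that of all genes was −0.94 under both scalings, which add 1 constant to each array, and −0.72 with quantile normalization. Of all genes called, 54.0% were lower (7113 lower, 6050 higher), and with spike-in scaling 40.6% were (5266 lower, 7704 higher).

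**Figure D4:**
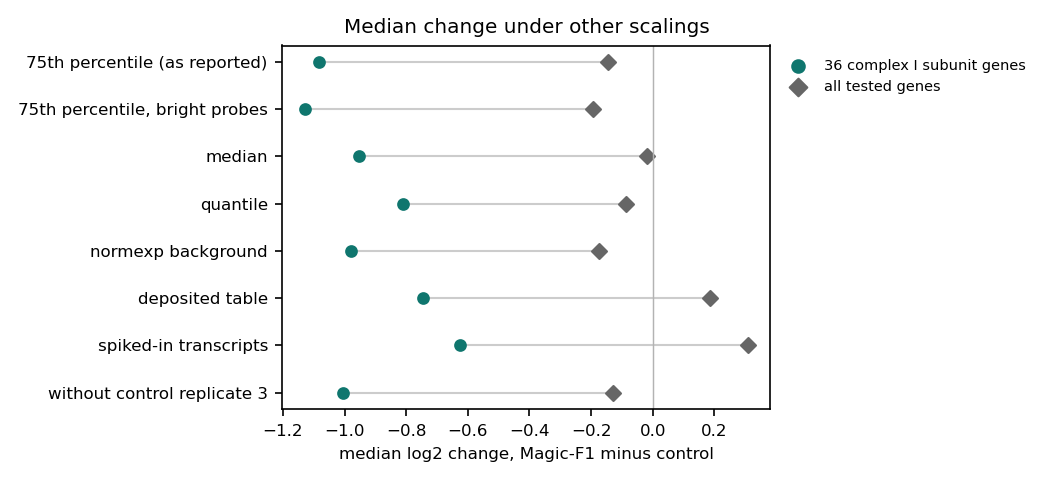
Median log2 change, Magic-F1 minus control (horizontal axis), of the 36 complex I subunit genes (circles) and of all tested genes (diamonds) under each scaling or data set named on the left. The subunit median is below 0 in all of them, from −1.13 to −0.63, and that median minus the one of all genes is −0.94 to −0.72.

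The promoters of the members were read for motifs of factors known for nuclear respiratory genes. RefSeq promoters of build GRCm38.p6, from 250 bases before to 50 after the start, matched 35 of the 39 genes. Among those without a match were Ndufa2, Ndufb9 and Ndufs1. Motifs were counted per gene, in any of its promoters and on either strand. The NRF1 motif is GCGCA and GCGC with 1 base of any kind between them. It lay in 7 of the 35 (20.0%) and in 5.19% of all 27025 genes with a promoter. The ETS motif CCGGAAG lay in 5 (14.3%) and in 9.93%, and the YY1 motif AAGATGGCG in 5 (14.3%) and in 1.64%. Any of the 3 lay in 16 of the 35 (45.7%) and in 15.1% of all genes with a promoter. The 7 genes with the NRF1 motif include the largest fall, Ndufa11, and the gene not called, Ndufa6. A match is a description of these letters and not a bound site.
The 250 bases before the start are shown for Ndufs6 (chr13:73328483-73328732, minus strand) and Ndufa11 (chr17:56717512-56717761, plus strand), whose NRF1 motif, in capitals, lies 16 to 7 and 60 to 51 bases before the start.
Ndufs6 promoter: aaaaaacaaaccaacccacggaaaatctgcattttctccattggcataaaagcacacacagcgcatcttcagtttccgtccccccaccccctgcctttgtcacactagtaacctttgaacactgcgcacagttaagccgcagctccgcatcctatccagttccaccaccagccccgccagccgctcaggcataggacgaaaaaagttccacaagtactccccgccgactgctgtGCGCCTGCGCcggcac
Ndufa11 promoter: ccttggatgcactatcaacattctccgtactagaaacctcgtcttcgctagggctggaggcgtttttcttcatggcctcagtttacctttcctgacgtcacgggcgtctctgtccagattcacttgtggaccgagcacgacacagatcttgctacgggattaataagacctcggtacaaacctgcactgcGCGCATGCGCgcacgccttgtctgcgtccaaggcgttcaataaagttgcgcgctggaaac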

How the data were processed

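RNA of 6 samples, 3 Magic-F1 and 3 control, was measured on 1-colour arrays. The deposited spot intensity is background-subtracted and not normalized between arrays, per the file headers, which name version 10.5.1.1 of Agilent Feature Extraction. The authors also deposited a table of log2 values. For 4 arrays it equals the log2 processed signal within 1e-06. For the replicates numbered 1 it does not, and no source used here gives the step.

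From each array's log2 processed signals the 75th percentile of its non-control spots was subtracted, outlier spots were dropped and spots of a probe averaged. A probe was tested where a group had it well above background on all of its 3 arrays. The test was limma 3.58.1 (R 4.3.3), 2-sided, with a term for group alone and p-values adjusted by Benjamini-Hochberg over 21186 probes. Each gene takes the value of the tested probe whose mean over the arrays is highest. The fit was tested on simulated data. For a group not well above background, the fold was computed against the lowest signal well above background. That fold depends on the background subtraction and can be smaller with another one. Names came from RefSeq accessions for 25097 of 41174 probes and from the files otherwise. Probe positions are those of the files (mm9).

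All members may be named, and values on every array are given for core subunits, assembly factors of the prefix, Ndufa4, the 5 largest falls and members whose call or probes went against the rest. Up to 4 genes of other lists are named, called ones first and then by size. Some genes that these rules name are not reported here. Members and lists were chosen with earlier results of these data known. Slide 1 held replicates 1 and 3 of each group and slide 2 held replicate 2. Alternatives covered scaling, background, filters, blocks, probe choice and leaving out each array. The number of arrays limits the precision.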

Additional observations from a re-analysis of the deposited data

How the results depend on the processing

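Of the 39 members, 31 kept their direction and call under all 19 alternatives, and 8 did not (Ndufa1, Ndufa2, Ndufa3, Ndufa6, Ndufa13, Ndufs3, Ndufs7 and Ndufv3). With quantile normalization 1 subunit gene was higher, the subunit median was −0.81, the difference between subunit and assembly factor medians was 0.79, Ndufa13 was at 0.42 and Ndufa6 at 0.0067. With spike-in scaling 2 subunit genes were higher, the subunit median was −0.63 and the assembly factor median −1.19, with Ndufa1 at 0.043, Ndufa13 at 0.25, Ndufa3 at 0.061, Ndufa6 at 0.38, Ndufaf3 at 0.40 and Ndufs7 at 0.0099. With the authors' deposited values 1 subunit gene was higher, the subunit median was −0.75 and the assembly factor median −1.33, with Ndufa13 at 0.092, Ndufa6 at 0.23 and Ndufaf3 at 0.29. With median scaling the assembly factor median was −1.51, Ndufa6 was at 0.053 and Ndufaf3 at 0.077. Spike-in and median scaling add 1 constant to an array and so move all genes together, which quantile normalization does not; the cause of the other moves was not tested. Leaving out 1 array at a time gave a subunit median of −1.10 to −1.004 and put Ndufa6 between −0.128 and 0.015, the highest without control replicate 3. Ndufa13 lost its call without Magic-F1 replicate 1 or 2. Nothing in the labels pairs replicate numbers, although same-numbered arrays also share a slide: deviations of same-numbered arrays correlated at −0.003, 0.108 and 0.069 over 21186 probes. With a replicate block 7119 genes were lower and 6017 higher, and the subunit median was −1.08. Dim probes, such as that of Ndufv2, limit the size of a change, as signal near background depends on its subtraction.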
